A study of Mus musculus with 4 samples.

Results

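The 8 chemokine receptor genes described here are Ccr2, Ccr4, Ccr8, Ccr9, Ccr10, Cxcr3, Cxcr4 and Cxcr6, taken by symbol from a table of 24061 genes counted by RNA sequencing in effector regulatory T cells (Tregs) sorted from Peyer's patches, the lymphoid follicles of the mouse small intestine. The sort took CD4+FoxP3+CD62L- cells of 13 week old mice on a C57BL/6 background, backcrossed for 5 generations and housed free of Helicobacter hepaticus, with about 40000 cells per RNA sample. Every mouse carried FoxP3-YFP-cre, in which Foxp3 drives both a yellow reporter and Cre, so that recombination falls in regulatory T cells. By the labels, 2 libraries (flox) came from Mafflox/flox mice and 2 (wt) from Maf+/+ mice, which the Maf counts given below do not follow. Whether the libraries of 1 label came from separate animals is not stated, so each p-value reflects the spread among these libraries alone, and some of that spread may be technical. In bulk samples, fewer cells of a type and less RNA per cell cannot be told apart.

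Chemokine receptors are G protein coupled receptors that steer cells along gradients of secreted chemokines and place them within tissues. In the gut, CCR9 is known for homing to the small intestine, where the epithelium makes its ligand CCL25. CCR4 and CCR8 are known from regulatory T cells of skin and other barrier tissues, CXCR3 from type 1 inflammation, and CCR2 from inflamed tissue and from monocytes.

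Maf, which encodes the basic leucine zipper factor c-Maf, did not follow the labels and has to be given before any receptor. The library labelled flox 2 had 15 counts and wt 2 had 40 (0.725 and 1.98 CPM, counts scaled to TMM library sizes), against 2975 and 3071 counts (122 and 149 CPM) in those labelled flox 1 and wt 1. The libraries are therefore compared in 2 ways, by the number in their titles (the pair numbered 2, low in Maf, against the pair numbered 1, high in Maf) and by label (flox against wt). Only the second is a comparison of labelled genotypes, and neither is one of verified genotypes. Gene totals ran from 19368745 to 24687897 counts. The library labelled flox 2 stood apart in heat shock genes, with 892 CPM of Hspa1a against 103, 80.9 and 35.5 CPM in the libraries labelled wt 2, flox 1 and wt 1 (a gene named after its values were seen).

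By number 2 receptors passed the test, and by label none did. Ccr2 fell 13.2-fold in the pair numbered 2, and Cxcr3 rose 1.70-fold in it. Ccr9, Cxcr6, Ccr8 and Cxcr4 had lower values there and Ccr4 higher ones, without passing the test. Ccr10 was counted at 0 throughout. Of the 7 receptors that passed the filter on low counts, 1 was called lower and 1 higher in the pair numbered 2 (quasi-likelihood test of edgeR over 13022 genes, p adjusted after Benjamini and Hochberg, threshold 0.05). Over all tested genes 1.41% were called lower and 0.399% higher, 1.81% in all. DESeq2 called 4 of the 7 (4.91% of all tested genes), limma-voom 1 (1.54%) and a fit with the number and label together 2 (1.63%). The median log2 fold change was -0.48 over the 7 receptors and 0.0089 over all tested genes. In each of the 7 the pairs did not overlap (5 lower, 2 higher), as in 45.2% of all tested genes (22.5% lower, 22.7% higher).

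**Figure D1:**
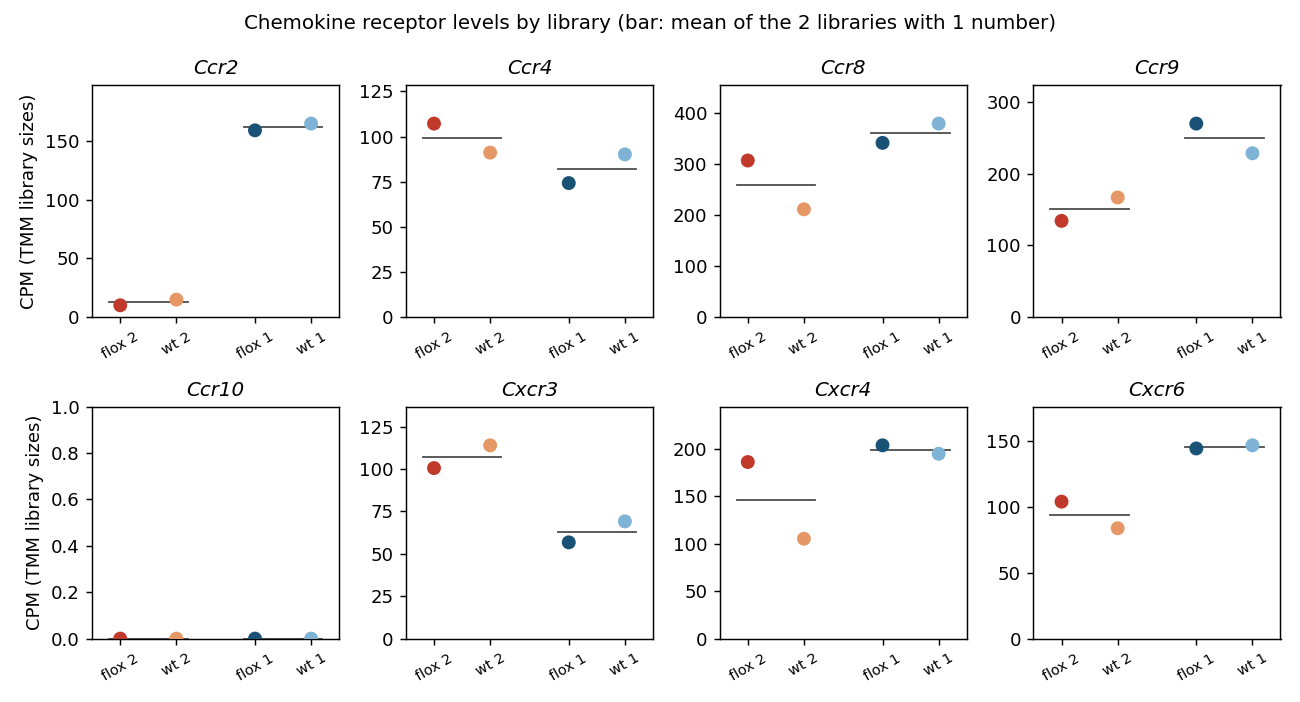
CPM of each receptor (vertical axis, from 0, a scale for each gene) in the libraries labelled flox 2, wt 2, flox 1 and wt 1; points are libraries and bars are means of 2 libraries with the same number. Ccr2 sits at 9.87 and 14.7 CPM in the pair numbered 2 and at 159 and 165 CPM in the pair numbered 1, Cxcr3 is higher in the pair numbered 2, and Ccr10 is at 0.

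Ccr2 encodes the receptor for CCL2 and related monocyte chemoattractants and lies on chromosome 9 at 124101950 to 124113557, plus strand (mm10), in 3 blocks of exons. The library labelled flox 2 had 204 counts and wt 2 had 298 (exact 95% Poisson intervals 177 to 234 and 265 to 334), against 3885 and 3392 in those labelled flox 1 and wt 1 (3764 to 4009 and 3279 to 3508). As CPM these were 9.87 and 14.7, against 159 and 165. The pairs lay far apart, and both labels held 1 low and 1 high library. Ccr2 averaged 12.3 ± 3.44 CPM in the pair numbered 2 and 162 ± 4.08 CPM in the pair numbered 1 (SD, n = 2 each), a log2 fold change of -3.72 (SE 0.19, edgeR adjusted p = 0.00116), 13.2-fold lower. It had the 10th smallest p of all tested genes. The ratio of number 2 to number 1 was 0.062 within flox (interval 0.0536 to 0.0714) and 0.0893 within wt (0.0791 to 0.101). These intervals, like all count intervals here, cover counting error only. The call held in each of 12 alternative settings, with log2 fold changes of -4.03 to -3.46 and adjusted p up to 0.0108.

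Cxcr3 encodes the receptor for the interferon-induced chemokines CXCL9 and CXCL10 and lies on the X chromosome at 101731535 to 101734269, minus strand. It had 101 and 114 CPM in the libraries labelled flox 2 and wt 2, against 56.7 and 69.1 CPM in those labelled flox 1 and wt 1. Both libraries numbered 2 lay above both numbered 1. The averages were 107 ± 9.49 and 62.9 ± 8.74 CPM (SD, n = 2 each), a log2 fold change of 0.77 (SE 0.13, edgeR adjusted p = 0.044), 1.70-fold higher. The ratio was 1.77 within flox (1.65 to 1.90) and 1.65 within wt (1.54 to 1.76). The call was close to the threshold. It was lost in 4 of 12 alternatives, without the library labelled flox 1 (adjusted p = 0.176), without wt 1 (0.106), by limma-voom (0.0525) and by limma on the authors' normalized values (0.053), over a range of 9.02e-05 to 0.176.

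Ccr9 and Cxcr6, whose products bind CCL25 of the small intestine and CXCL16, had lower values in the pair numbered 2 and missed the threshold. Ccr9 (chromosome 9, 123678439 to 123784330, plus strand) had 134 and 167 CPM in the libraries labelled flox 2 and wt 2, against 270 and 228 CPM in those labelled flox 1 and wt 1. The log2 fold change was -0.73 (SE 0.14, edgeR adjusted p = 0.0683), with a ratio of 0.497 within flox (0.475 to 0.519) and 0.73 within wt (0.698 to 0.763). Cxcr6 (chromosome 9, 123806475 to 123811760, plus strand, inside Fyco1 but sharing no exon with it) had 104 and 83.6 CPM in the pair numbered 2, against 144 and 146 CPM in the pair numbered 1. Its log2 fold change was -0.63 (SE 0.12, edgeR adjusted p = 0.0665), with a ratio of 0.72 within flox (0.682 to 0.76) and 0.571 within wt (0.538 to 0.606). Neither receptor overlapped between the pairs. DESeq2 called both (adjusted p = 8.59e-05 and 0.000858), and over 12 alternatives the adjusted p ran from 8.59e-05 to 0.226 for Ccr9 and from 0.000858 to 0.337 for Cxcr6. Annotated exons of Ccr9 share 1932 bases with an opposite-strand transcript and 269 with the same-strand lincRNA Gm17200, neither of which has a row in the table, and 22 with Slc6a20a on the opposite strand, which has one. The use of strand in counting is not given in the sources used here.

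Ccr8 and Cxcr4 turned on single libraries. Ccr8, the receptor for CCL1, lies on chromosome 9 at 120092114 to 120094906, plus strand. It had 307 and 211 CPM in the libraries labelled flox 2 and wt 2, against 342 and 380 CPM in those labelled flox 1 and wt 1 (log2 fold change -0.48, SE 0.18, edgeR adjusted p = 0.354). Cxcr4, the receptor for CXCL12 (chromosome 1, 128588199 to 128592293, minus strand), had 186 and 105 CPM in the pair numbered 2, against 204 and 195 CPM in the pair numbered 1 (log2 fold change -0.45, SE 0.29, adjusted p = 0.606). For both genes the library labelled wt 2 was lowest and flox 2 lay closer to the pair numbered 1. The ratio of number 2 to number 1 was 0.898 within flox (0.869 to 0.928) and 0.556 within wt (0.536 to 0.578) for Ccr8, and 0.914 within flox (0.876 to 0.953) and 0.54 within wt (0.512 to 0.57) for Cxcr4. Without the library labelled flox 2, wt 2 stood alone for its pair, and the log2 fold change was -0.77 for Ccr8 and -0.92 for Cxcr4. Without the library labelled wt 2, flox 2 stood alone, and the log2 fold change was -0.23 for Ccr8 and -0.09 for Cxcr4. Over all 12 alternatives the adjusted p ran from 0.00721 to 0.814 for Ccr8 and from 0.00302 to 0.904 for Cxcr4.

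Ccr4, the receptor for CCL17 and CCL22 (chromosome 9, 114490316 to 114504916, minus strand), had the smallest log2 fold change by number. It had 107 and 91.1 CPM in the libraries labelled flox 2 and wt 2, against 74.2 and 90.1 CPM in those labelled flox 1 and wt 1. The pairs nearly met, at 91.1 and 90.1 CPM, and the log2 fold change of 0.27 (SE 0.13) did not pass (edgeR adjusted p = 0.453). The ratio was 1.44 within flox (1.36 to 1.54) and 1.01 within wt (0.947 to 1.08). Ccr10, the receptor for CCL27 and CCL28 (chromosome 11, 101172997 to 101175443, minus strand), had 0 counts in each library. By depth alone this allows up to 0.145 and 0.148 CPM in the libraries labelled flox 2 and wt 2 (3 counts per library). For those labelled flox 1 and wt 1 the limit is 0.123 and 0.146 CPM. The annotated span of Ccr10 overlaps Cntnap1 on the opposite strand, with no shared exon.

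Compared per kilobase of the principal GENCODE transcript, Ccr8 was the most abundant receptor of the set. It averaged 264 ± 61.4 CPM per kb over the 4 libraries, followed by Cxcr4 (95.6 ± 25.2), Cxcr6 (63.0 ± 16.3), Cxcr3 (49.1 ± 15.4), Ccr9 (38.4 ± 11.7), Ccr4 (32.3 ± 4.80) and Ccr2 (15.2 ± 15.1), with SD over n = 4 libraries of both pairs. The lowest library of Ccr8 (180 CPM per kb) lay above the highest of Cxcr4 (113). Neighbours from Cxcr4 to Ccr2 overlapped between libraries, though within each library Cxcr4 lay above Cxcr6. The order of levels differed between the pairs. Cxcr3 lay above Cxcr6 in the pair numbered 2, with 58.1 and 65.8 CPM per kb of Cxcr3 beside 54.7 and 44.1 of Cxcr6. In the pair numbered 1 it lay below it, with 32.8 and 39.9 CPM per kb of Cxcr3 beside 75.9 and 77.2 of Cxcr6. Ccr9 lay below Cxcr3 in the pair numbered 2, with 25.8 and 32.1 CPM per kb, and above it in the pair numbered 1, with 51.9 and 43.9. Ccr4, with 38.2 and 32.5 CPM per kb in the pair numbered 2, was above Ccr9 in the library labelled flox 2 and about level with it in wt 2, and with 26.4 and 32.1 in the pair numbered 1 it was below Ccr9 in both. Ccr2 had 1.72 and 2.57 CPM per kb in the pair numbered 2, against 27.8 and 28.8 in the pair numbered 1, close to the values of Ccr4 there. With all annotated exons as length, an alternative added after seeing the data, Ccr9 dropped below Ccr4 (means of 19.5 and 29.3 CPM per kb), and no other place in the order changed.

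**Figure D2:**
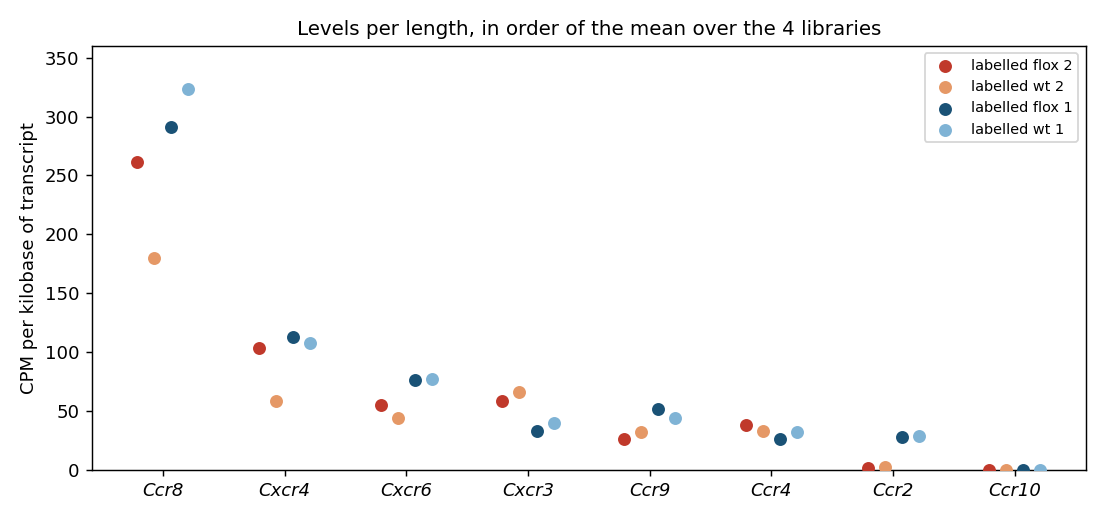
CPM per kilobase of principal transcript (vertical axis) for the 8 receptors, ordered by their mean over the 4 libraries; each point is a library. Ccr8 lies above all other receptors in every library, and Ccr2 spans from 1.72 to 28.8 CPM per kb.

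By label, 0 of the 7 tested receptors passed in edgeR (adjusted p = 1 for all 7), 0 had an unadjusted p under 0.05, and DESeq2 and limma-voom called 0. Over all tested genes edgeR called 0.00768%, DESeq2 0.0922% and limma-voom 0%, and 1.98% had an unadjusted p under 0.05. Ccr2 averaged 84.5 ± 106 CPM in labelled flox and 89.8 ± 106 CPM in labelled wt (SD, n = 2 each), with a log2 fold change of -0.09 (SE 1.77). The spread within a label thus covered the whole range of the gene. Log2 fold changes of the other 6 ran from -0.22 (SE 0.38) for Cxcr3 to 0.38 (SE 0.31) for Cxcr4. None of the 7 had libraries separated by label, against 27% of all tested genes. This was fixed by their separation by number, because 4 libraries cannot be separated both ways, and says nothing further about the label. Exact permutation over these 4 libraries has a smallest two-sided p of 0.333 and was left out.

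**Figure D3:**
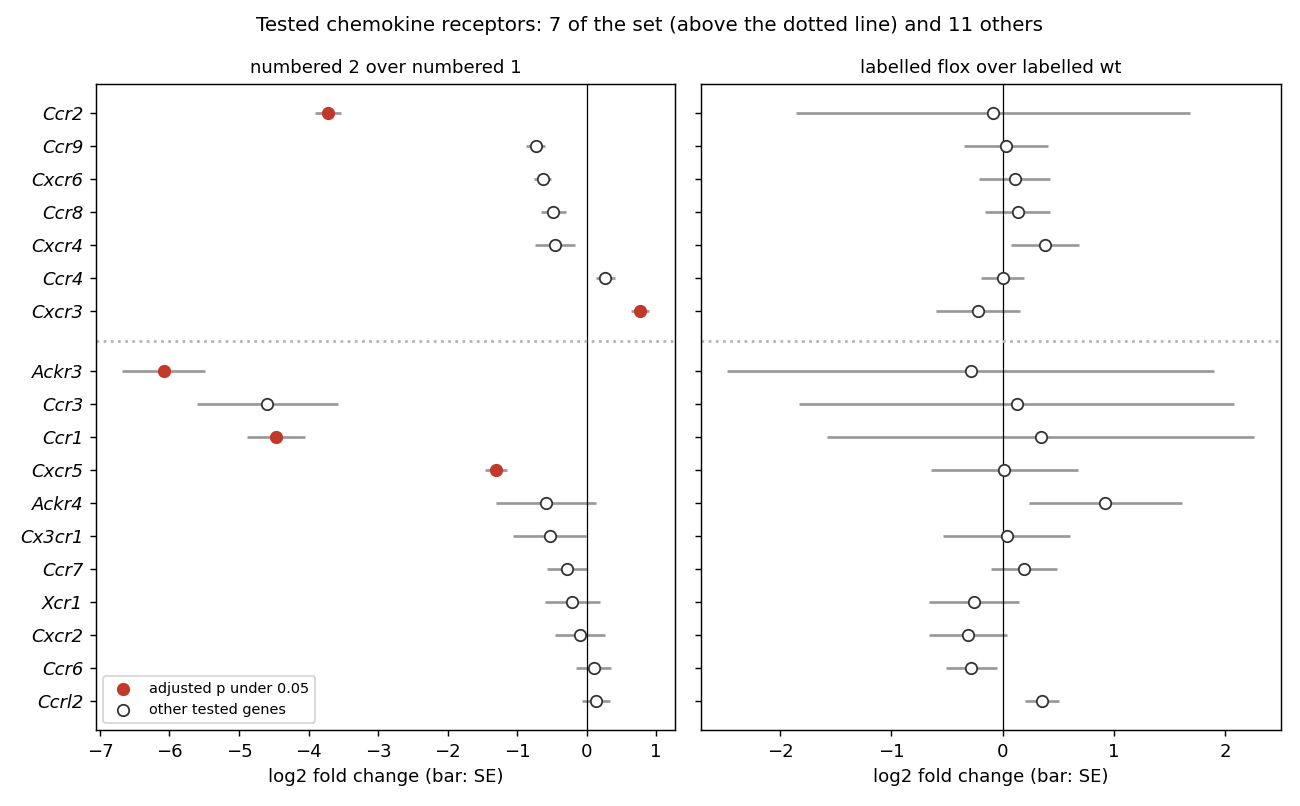
Log2 fold change with its SE (horizontal axes, a different scale on each side) of 18 tested chemokine receptors, by number on the left and by label on the right; filled points have an adjusted p under 0.05. By number Ccr2, Ackr3, Ccr1 and Cxcr5 are called lower and Cxcr3 higher, and by label none of them is called.

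Of 15 other chemokine receptors, 11 were tested, and by number 3 were called lower and 0 higher in the pair numbered 2 (median log2 fold change -0.53). Over all tested genes 1.41% were called lower and 0.399% higher. Ccr1, a receptor for CCL3 and CCL5, had 0.919 and 0.396 CPM in the libraries labelled flox 2 and wt 2, against 16.2 and 13.2 CPM in those labelled flox 1 and wt 1 (log2 fold change -4.47, SE 0.42, edgeR adjusted p = 0.00809). Ackr3, an atypical receptor that binds CXCL12 alongside CXCR4, had 0.0484 and 0.0989 CPM, under the level of 3 counts, against 4.83 and 5.88 CPM (adjusted p = 0.00832). Cxcr5, which guides cells into follicles, had 89.4 and 65.9 CPM, against 181 and 202 CPM (log2 fold change -1.30, SE 0.16, adjusted p = 0.017). Ccr6 and Ccr7, named after their values were seen, did not pass. Ccr6 had 57.8 and 95.7 CPM, against 76.1 and 67.0 CPM, and Ccr7, the receptor for entry into lymph nodes, had 1211 and 708 CPM, against 1053 and 1275 CPM.

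Ccr2, Ccr1 and Ccr3 lie near each other on chromosome 9, on the same stretch as Ccr9 and Cxcr6, and a look at this region was added after its values were seen. Within 500 kb of Ccr2, 13 protein-coding genes were described. Ccr2 and Ccr1 were called with the log2 fold changes already given. Ccr3, an eosinophil receptor for eotaxins, had 4 and 0 counts in the pair numbered 2, against 61 and 51 in the pair numbered 1 (edgeR adjusted p = 0.102). Xcr1, between Cxcr6 and Ccr1, had 2.37 and 3.31 CPM in the pair numbered 2, against 3.20 and 3.35 CPM in the pair numbered 1. Fyco1, which surrounds Cxcr6, had 56.1 and 68.0 CPM, against 45.8 and 62.1 CPM (log2 fold change 0.20, SE 0.18, adjusted p = 0.702). Lztfl1, which lies within the annotated span of Ccr9, was called lower, with 86.1 and 83.4 CPM, against 126 and 134 CPM (log2 fold change -0.62, SE 0.09, adjusted p = 0.0256).

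**Figure D4:**
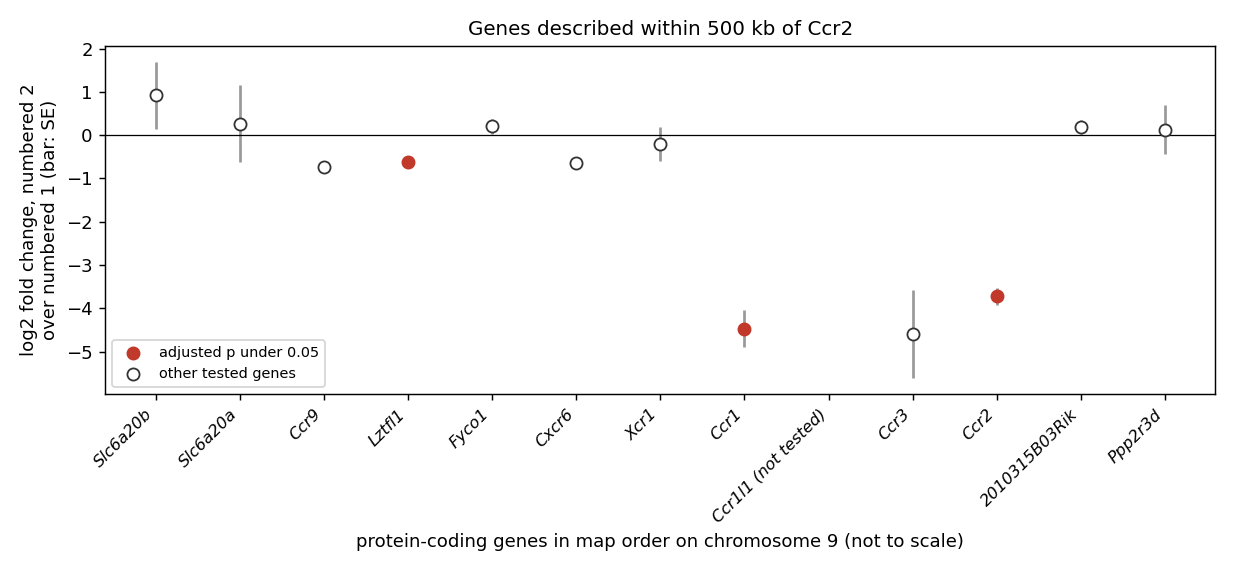
Log2 fold change of the pair numbered 2 over the pair numbered 1 with its SE (vertical axis) for 13 protein-coding genes within 500 kb of Ccr2, in map order and not to scale; filled points have an adjusted p under 0.05, and Ccr1l1 was not tested. Ccr1, Ccr3 and Ccr2 lie between -4.59 and -3.72, and the other tested genes shown between -0.73 and 0.92.

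Promoter letters are shown for Ccr2 and Cxcr3, the 2 called receptors, and for Ccr8, the only other one with the core of a Maf half-site. Each line gives the 250 bases before the start in RefSeq (GRCm38.p6, the same assembly as mm10), with motif matches in capitals. Ccr2 is at chr9:124101933-124102182 (plus strand), Cxcr3 at chrX:101734148-101734397 (minus strand) and Ccr8 at chr9:120091883-120092132 (plus strand). Ccr10 had no entry in the table of promoters.
Ccr2: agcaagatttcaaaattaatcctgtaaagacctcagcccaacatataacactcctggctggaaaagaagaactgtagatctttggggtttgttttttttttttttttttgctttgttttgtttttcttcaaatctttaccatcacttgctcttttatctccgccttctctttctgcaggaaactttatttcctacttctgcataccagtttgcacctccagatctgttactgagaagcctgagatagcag
Cxcr3: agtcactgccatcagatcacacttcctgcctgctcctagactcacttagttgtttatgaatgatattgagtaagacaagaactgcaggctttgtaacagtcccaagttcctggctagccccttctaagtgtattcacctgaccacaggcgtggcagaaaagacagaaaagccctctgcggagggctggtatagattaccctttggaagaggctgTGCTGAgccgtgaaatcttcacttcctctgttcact
Ccr8: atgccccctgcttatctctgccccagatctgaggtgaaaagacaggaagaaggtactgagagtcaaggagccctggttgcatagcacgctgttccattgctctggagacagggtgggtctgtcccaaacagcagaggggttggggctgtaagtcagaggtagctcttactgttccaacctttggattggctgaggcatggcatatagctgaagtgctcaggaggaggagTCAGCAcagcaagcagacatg
Both strands were searched for TGCTGA (the core of a Maf half-site), TGANTCA (AP-1), AGGTCA (a half-site of nuclear receptors) and AGGTGTGA (T-box factors), of which the first and second can overlap. TGCTGA was found 36 bases before the RefSeq start of Cxcr3 and, on the other strand, 21 bases before that of Ccr8. RefSeq and GENCODE starts differ: the RefSeq start lies 233 bases after the GENCODE start in Ccr2, 122 in Cxcr3 and 19 in Ccr8. In Ccr4 and Ccr9 it lies 8372 and 88772 bases after it. By the GENCODE coordinates most of the Ccr2 window and the Cxcr3 match therefore lie inside the gene, and the Ccr8 match crosses its start. The whole windows of Ccr4 and Ccr9, with the match in Ccr4 given below, also lie inside the gene. The same window held TGCTGA in 16.1% of 32851 promoters. TGANTCA was found once, in Ccr4, and in 6.75% of all promoters. AGGTCA and AGGTGTGA, held by 14% and 1.12% of all promoters, were in none of the 7 windows. A match is a string of letters and not a measured site.

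Among 33 chemokine ligand genes, 13 were tested, 1 was called lower and 1 higher in the pair numbered 2 (median log2 fold change 0.12). Beside these counts stand 1.41% called lower and 0.399% called higher over all tested genes. Ccl20, the ligand of CCR6, had 5.32 and 5.93 CPM in the libraries labelled flox 2 and wt 2, against 85.4 and 86.4 CPM in those labelled flox 1 and wt 1 (log2 fold change -3.93, SE 0.13, edgeR adjusted p = 0.000159). Ccl1, the ligand of CCR8, went the other way, with 6.72 and 6.67 CPM, against 0.696 and 0.583 CPM (log2 fold change 3.37, SE 0.39, adjusted p = 0.0146). Xcl1, a ligand of XCR1, had 12.5 and 4.05 CPM, against 1.15 and 1.60 CPM (adjusted p = 0.121), and Cxcl16, the ligand of CXCR6, had 3.24 and 1.88 CPM, against 5.53 and 4.08 CPM (adjusted p = 0.431). Of the other ligands 6 had no count in any library, among them Ccl2.

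The machinery behind the receptors did not pass the test in any member. Of 34 genes of receptor signalling and desensitisation 33 were tested and 0 were called by edgeR (median log2 fold change -0.05). An unadjusted p under 0.05 was found for 10 of these 33, a larger share than the 13.6% of all tested genes. Cd69, whose product retains lymphocytes in tissue by opposing S1PR1, had 496 and 391.8 CPM in the pair numbered 2, against 687 and 610 CPM in the pair numbered 1 (adjusted p = 0.125). Arrb1, a β-arrestin that switches receptors off, had 32.8 and 28.8 CPM, against 45.3 and 39.3 CPM (adjusted p = 0.213). Elmo1, an activator of Rac with Dock2, had 312 and 256 CPM, against 365 and 355 CPM, and the phospholipase Plcb3 had 82.5 and 75.7 CPM, against 66.2 and 59.9 CPM (adjusted p = 0.237 and 0.238). Of 16 other migration receptors 12 were tested and 0 were called (median log2 fold change -0.23). An unadjusted p under 0.05 was found for 3 of these 12, beside the same 13.6% of all tested genes. Ptger4, a prostaglandin E2 receptor, had 244 and 210 CPM, against 292 and 288 CPM (adjusted p = 0.176). Ffar2, a receptor for short-chain fatty acids, had 0.532 and 0.692 CPM, against 1.93 and 2.33 CPM (adjusted p = 0.226). Gpr132 had 125 and 107 CPM, against 148 and 142 CPM (adjusted p = 0.237), and the sphingosine 1-phosphate receptor S1pr2 had 36.8 and 31.6 CPM, against 38.8 and 44.9 CPM (adjusted p = 0.445).

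The genes closest in pattern to the 2 called receptors were looked for among 8481 other protein-coding genes, by the Euclidean distance of centred log2(CPM + 0.5) over the 4 libraries. Closest to Ccr2 were Ccl20 (distance 0.318), the gelatinase gene Mmp9 (0.402) and the ribonuclease gene Rnase4 (0.469). Mmp9 had 1.64 and 3.26 CPM in the pair numbered 2, against 48.4 and 40.6 CPM in the pair numbered 1. Closest to Cxcr3 were Sac3d1 (0.0786), Tnfsf10, which encodes the death ligand TRAIL (0.108), and the interferon-induced gene Epsti1 (0.115). Epsti1 had 137 and 141 CPM, against 77.2 and 92.6 CPM. By edgeR Sac3d1 did not pass (adjusted p = 0.221), while Tnfsf10 and Epsti1 did (adjusted p = 0.0451 and 0.0364). With 4 libraries these are descriptions, and they rest on the same split of the libraries.

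The defining markers of the sorted cells were present throughout, and markers of other cell types were also counted, at lower sums. Foxp3 had 104 and 104 CPM in the pair numbered 2, against 91.0 and 93.8 CPM in the pair numbered 1, and Cd4 had 973 and 998 CPM, against 920 and 983 CPM. Of 9 identity genes 1 was called, beside 1.81% of all tested genes. It was Ctla4, an inhibitory receptor of regulatory T cells, with 2080 and 1627 CPM, against 3344 and 3342 CPM (edgeR adjusted p = 0.027).

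Because CCR2 marks monocytes and CCR9 also plasmacytoid dendritic cells, the 11 myeloid and dendritic markers are given beside both genes. Their summed level was 56.0 and 70.4 CPM in the libraries labelled flox 2 and wt 2, against 105 and 19.4 CPM in those labelled flox 1 and wt 1. Lyz2, with 42.9 and 41.2 CPM, against 66.9 and 7.97 CPM, made up most of the sum in every library except that labelled wt 1. At 0 counts were Adgre1 (listed as Emr1) in the library labelled wt 2, and Csf1r and Cd14 in wt 1. Of these markers 10 were tested and 0 called (0 at an unadjusted p under 0.05). Siglech, a marker of plasmacytoid dendritic cells, had 0.725 and 8.95 CPM, against 7.66 and 8.12 CPM.

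The 10 B and plasma cell markers summed to 75.0 and 99.2 CPM in the pair numbered 2, against 152 and 74.4 CPM in the pair numbered 1, and the 10 epithelial markers to 344 and 468 CPM, against 457 and 194 CPM, with 0 called in each list. The 8 markers of CD8 T and natural killer cells summed to 103 and 86.1 CPM, against 62.0 and 56.2 CPM, with the pair numbered 2 higher, as for Cxcr3. That difference was carried by Klrb1c, with 68.5 and 44.9 CPM, against 21.3 and 22.6 CPM (edgeR adjusted p = 0.0368). Klrb1c was the 1 called of 7 tested, beside 1.81% of all tested genes. Without it, a sum added after seeing the data, the other 7 gave 34.0 and 41.1 CPM, against 40.8 and 33.6 CPM, and the pairs overlapped. Ncr1, a receptor of natural killer and some innate lymphoid cells, was at 0 counts in both libraries of the pair numbered 2 and at 3 and 1 counts in the pair numbered 1. Of the innate lymphoid markers, 8 were summed, several of which regulatory T cells also express, to 1816.5 and 1894 CPM, against 1728 and 1636 CPM, with 0 called by edgeR and 1 at an unadjusted p under 0.05. The 9 stromal and endothelial markers summed to 67.2 and 86.6 CPM, against 81.4 and 75.9 CPM, with 0 called. The part of these cells in the receptor values was not tested.

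**Figure D5:**
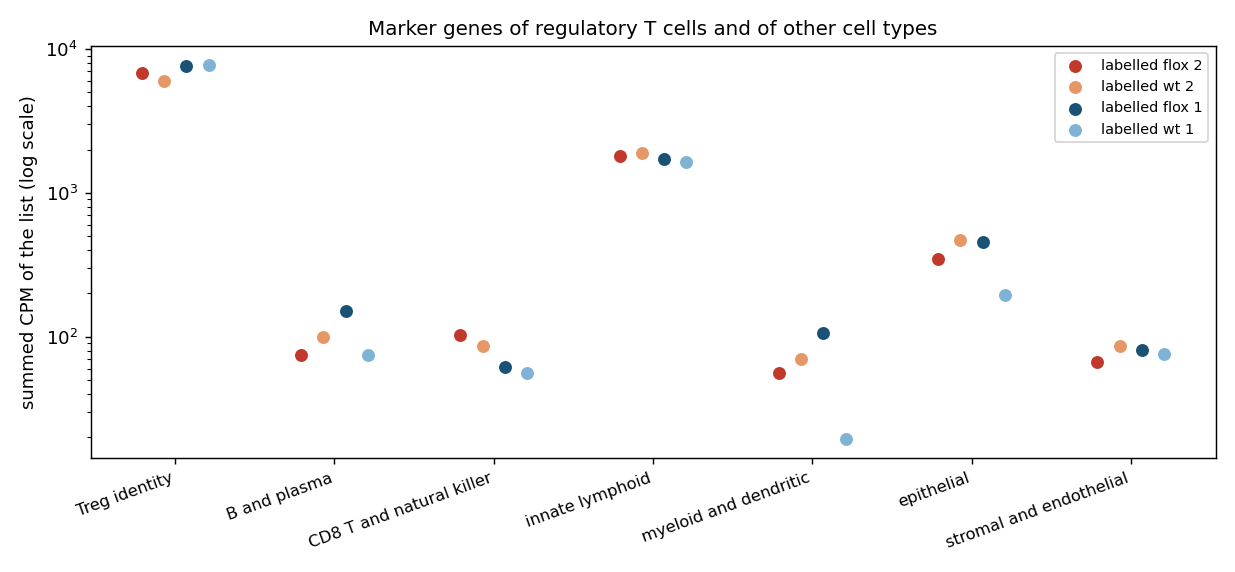
Summed CPM of 7 marker lists (vertical axis, log scale) in the 4 libraries; each point is a library. The regulatory T cell list lies between 6029 and 7793 CPM, and the library labelled wt 1 is lowest for the myeloid and epithelial lists.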

How the data were processed

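Sorted cells went into Trizol, RNA into a column cleanup, and libraries were built with a kit for very small mRNA inputs, per the labels' protocols. The submitters' processing notes name TopHat2 2.1.1, HTSeq 0.6.1, edgeR 3.14 and mm10. Their settings, the annotation and any use of strand were not given in the sources used here. What the authors deposited are raw counts per gene symbol (24061 genes and 5 counter summary rows, 66.6% to 67.2% of column totals, left out of library sizes and tests). They also deposited normalized values, a signal that is never negative, for 10618 genes. Recomputed edgeR pseudo-counts matched 100% of these values (relative error up to 1e-06) with the libraries grouped by title number, and 3.25% when grouped by label. They were used in 1 alternative, on log2(value + 1). Because the values match a grouping by number, that alternative is not independent of the comparison by number.

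Libraries were grouped by genotype and by number, both as the titles give them. A further replicate field of the labels, which gives 1 number to both wt libraries and another to both flox libraries, was not used. The test on counts was that of edgeR 4.0.16 in R 4.3.3 (filterByExpr, TMM, robust glmQLFit and glmQLFTest, Benjamini-Hochberg adjustment over 13022 genes, threshold 0.05). The biological coefficient of variation was 0.194 by number and 0.273 by label. Standard errors were derived as |log2 fold change| over the square root of the F statistic. CPM use TMM library sizes. Ratios of 1 library to another have exact binomial intervals at 95%. The tests were tried on simulated counts first. Alternatives were DESeq2 1.42.0, limma-voom (limma 3.58.1), other scalings and filters, a fit with number and label together (the replicate block), and fits without 1 library. Coordinates and lengths come from GENCODE M21 on the same assembly, where 94.4% of gene rows matched a symbol.

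The members, lists and the comparison by number were chosen with earlier results of these data known. Named were the 8 members, Maf, up to 4 tested genes of each pathway list by smallest p by number, any gene called there, and the 3 genes nearest in pattern to each called member. Of the genes in the lists, 2 are not reported here.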

Additional observations from a re-analysis of the deposited data

How the results depend on the processing

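By number, 236 genes and 2 members were called. DESeq2 called 640 genes and 4 members, and a fit with no filter on low counts called 589 genes and 4 members, Ccr9 and Cxcr6 being the added members. Limma-voom and limma on the authors' normalized values each called 1 member, Ccr2. Leaving out 1 library gave 46 to 525 genes and 1 to 5 members: 504 genes and 5 members without the library labelled flox 2, 525 and 4 without wt 2, 116 and 1 without flox 1, and 46 and 1 without wt 1. These fits have 1 library on a side, assumed to vary like the others. The sign of each tested member by number was the same in all 12 alternatives. By label, 1 gene was called. DESeq2 called 12, the fit with no filter 2, limma-voom 0 (262 at an unadjusted p under 0.05), limma on the authors' values 0 (198), and leaving out any 1 library 0 to 0; no setting called a member. Small label differences changed sign. The log2 fold change of Ccr4 by label was -0.028 by limma-voom, -0.023 with no further scaling, -0.022 with the replicate block and -0.017 on the authors' values, and that of Ccr9 was -0.036 by limma-voom, -0.035 with the replicate block and -0.032 on the authors' values. The cause of these changes was not tested. With a library left out, 1 label keeps a library of only 1 number, so label and number are mixed in those fits. Log2 fold changes by label then ran from -3.19 to 2.52 for Ccr2, -0.29 to 0.24 for Ccr4 and -0.22 to 0.62 for Ccr8. They ran from -0.56 to 0.45 for Ccr9, -0.69 to 0.19 for Cxcr3 and -0.24 to 0.57 for Cxcr6. The replicate block, with number and label in 1 model, gave 212 genes and 2 members by number and 1 gene and 0 members by label. Libraries with the same number deviated together (correlation 0.326 across tested genes, which are not independent), but the labels do not say what the number stands for. Depth limits Ccr10, Ccr3 and Ackr3, which had under 10 counts in at least 1 pair.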
